A study of Homo sapiens with 114 samples.

Results

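The genes described here are 31 genes of the DNA replication machinery, taken by name out of 19775 genes that a single symbol names in the table, and all 31 were measured above the filter in every set of arrays. They were followed in HK-2 cells, an immortalized line of human renal proximal tubular epithelium, on 114 expression arrays in 38 groups of 3 biological replicates. There were 26 treated groups and 12 control groups. The treated cells received CsA at 12 or 48 h, Aa at a high or low dose for 24 or 48 h, Nnm or Kbr at a high or low dose for 24 or 48 h, Ota at a high or low dose for 24 or 72 h, Fk or Ra for 12 or 48 h, and CdCl or Di for 12 or 48 h. The compound names are those of the labels, which give the doses as high or low without a concentration. The controls received the vehicle for the same time, and each compound or pair of compounds had control cultures of its own. All cells were seeded a day before treatment and were close to confluent when exposed, in a medium with epidermal growth factor, insulin and hydrocortisone and no serum named in the labels. The cells are 1 line, so the replicates are cultures of that line, and p-values measure the spread between such cultures.

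Replication begins when the origin is licensed: CDC6 and CDT1 load the MCM2 to MCM7 ring onto DNA in G1. CDC45 and the GINS complex then join the ring to form the active helicase, with MCM10 needed for its start. Primase and the polymerases build the new strands, RFC loads the PCNA clamp, FEN1 trims the lagging strand, ribonucleotide reductase, thymidylate synthase and thymidine kinase supply deoxynucleotides, and CAF-1 and ASF1B place histones behind the fork. Many of these genes are transcribed in late G1 by E2F factors, and a resting renal epithelium expresses them weakly.

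Promoter windows are shown for 5 members whose levels moved most or moved against the others, so that the start regions can be set beside the values that follow. These 5 were chosen after their values were seen. Each window is the RefSeq sequence of GRCh38.p14 from 250 bases before to 50 bases after the start site, written 5′ to 3′ on the gene's strand. Capitals mark E2F-type words on either strand.
MCM10, chr10:13161308-13161607, plus strand: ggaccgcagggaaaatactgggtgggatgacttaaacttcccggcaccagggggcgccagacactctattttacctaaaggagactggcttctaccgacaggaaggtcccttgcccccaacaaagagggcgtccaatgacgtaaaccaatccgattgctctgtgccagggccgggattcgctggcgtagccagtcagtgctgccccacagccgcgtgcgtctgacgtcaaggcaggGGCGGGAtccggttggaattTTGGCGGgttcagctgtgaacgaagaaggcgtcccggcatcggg
CDC6, chr17:40287629-40287928, plus strand: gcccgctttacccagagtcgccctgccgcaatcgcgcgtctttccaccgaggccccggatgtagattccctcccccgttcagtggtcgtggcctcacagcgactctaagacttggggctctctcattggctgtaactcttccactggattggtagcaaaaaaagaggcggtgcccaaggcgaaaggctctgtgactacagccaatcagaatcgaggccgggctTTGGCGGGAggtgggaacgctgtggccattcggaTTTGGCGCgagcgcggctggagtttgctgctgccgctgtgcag
CDT1, chr16:88803539-88803838, plus strand: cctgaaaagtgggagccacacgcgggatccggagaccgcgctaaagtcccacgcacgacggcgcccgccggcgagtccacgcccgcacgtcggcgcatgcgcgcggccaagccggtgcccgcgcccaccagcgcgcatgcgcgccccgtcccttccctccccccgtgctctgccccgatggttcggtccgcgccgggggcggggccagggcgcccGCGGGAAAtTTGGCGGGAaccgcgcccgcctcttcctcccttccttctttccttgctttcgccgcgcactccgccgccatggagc
E2F1, chr20:33686336-33686635, minus strand: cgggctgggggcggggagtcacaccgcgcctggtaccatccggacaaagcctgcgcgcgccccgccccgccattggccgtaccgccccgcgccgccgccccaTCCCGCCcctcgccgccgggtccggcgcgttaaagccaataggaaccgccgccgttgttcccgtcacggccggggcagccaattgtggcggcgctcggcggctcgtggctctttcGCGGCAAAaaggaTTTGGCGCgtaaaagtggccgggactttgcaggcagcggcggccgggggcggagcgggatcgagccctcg
RFC4, chr3:186806433-186806732, minus strand: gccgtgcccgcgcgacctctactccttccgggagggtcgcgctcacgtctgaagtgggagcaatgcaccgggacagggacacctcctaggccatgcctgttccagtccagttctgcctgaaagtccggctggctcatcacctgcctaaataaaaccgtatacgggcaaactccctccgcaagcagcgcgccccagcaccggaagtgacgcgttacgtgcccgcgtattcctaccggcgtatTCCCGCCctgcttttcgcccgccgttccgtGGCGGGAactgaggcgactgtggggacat
The first 4 words searched, on both strands, were TTTCCCGC, TTTGGCGC, TTTCGCGC and TTTGCCGC. They occurred in 17 of the 37 windows of the 28 members with an entry (45.9%), against 3.31% of all 35116 windows of the same length. By gene, 16 of 28 members had such a word. MCM4, MCM5 and GINS4 had no entry. The shorter words GGCGGGA and TTGGCGG were added after the MCM10 and RFC4 windows had been seen to hold none of the first 4, so their share among the members (56.8% of windows, against 17.7% of all windows) carries no weight of its own. The short words can overlap each other, as they do in CDC6 and CDT1. CCAAT was found in 67.6% of member windows and 34.6% of all windows, and TATAAA in 8.11% and 11.5%. CDC6 had TTTGGCGC from base 8 after its start, CDT1 a full word at -35, and E2F1 full words at -33 and -20. A match of letters is no measured binding, and a window without one shows only that these letters are not in it.

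The values are log2 intensities per gene, from the probe set with the highest mean, so levels are compared between groups of 1 gene and never between genes. Of 14 proximal tubule markers, 3 (SLC3A1, PAX8 and CDH6) were above a log2 value of 4 on all 36 control arrays, and 8, among them AQP1, LRP2, CUBN and SLC34A1, were above it on none. The epithelial genes KRT7, KRT8, KRT18, KRT19 and EPCAM were above it on all 36, and CDH1 on 34. Of 16 markers of other cell types, COL1A1, DCN and ACTA2 were above it on all 36 arrays, and PTPRC, PECAM1 and VWF on none. The Ota high arrays at 24 h stood apart in their upper quartile (6.31 to 6.58, against 6.95 to 7.07 in their controls). The upper quartile also lay wholly below the controls for Kbr high at both times, Ota high at 72 h and CdCl at 12 h, and wholly above them for Ota low at 72 h and Nnm low at 48 h. The part of this shift in the results below was not tested.

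**Figure D1:**
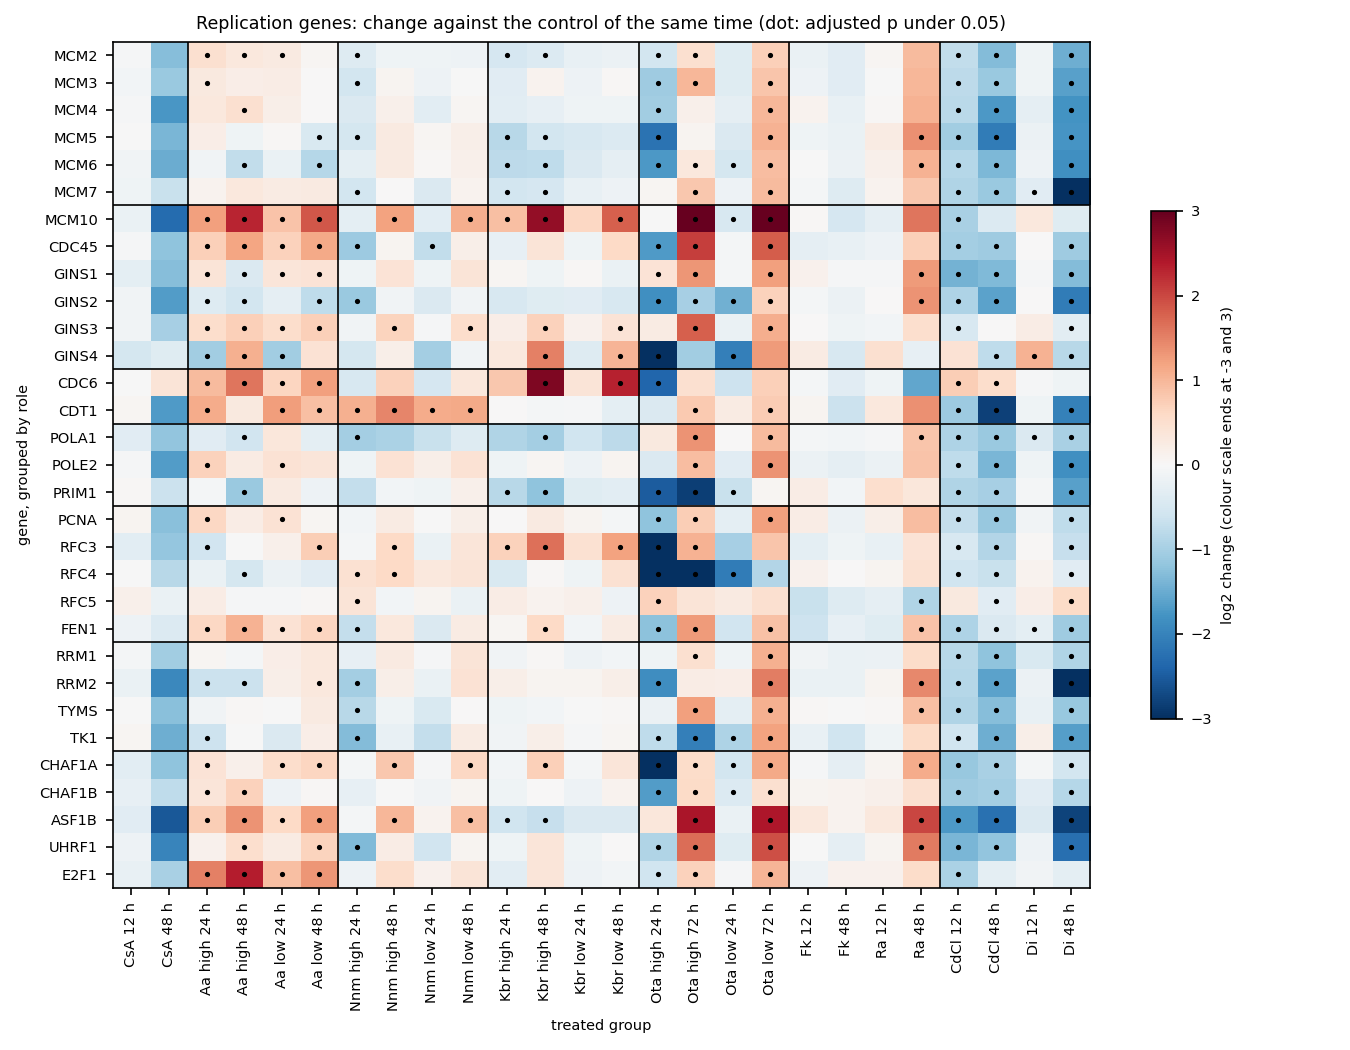
Log2 change of each of the 31 genes (rows, grouped by role) in each of the 26 treated groups (columns) against the control of the same time; red is higher, blue is lower, and a dot marks an adjusted p under 0.05. The CdCl columns and Di at 48 h are blue almost throughout, the Ota columns turn from blue at 24 h to red at 72 h, and MCM10 is red under Aa and Kbr, and under Ota at 72 h.

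In the vehicle controls, most members were lower at the later time in 3 of the 6 sets of cultures and few were called in the Aa and the Nnm and Kbr sets, and MCM10 had the lowest value of change in each. Against the earlier control, 28 of 31 members were lower in the CdCl and Di controls (29.3% of all genes were called lower), 27 in the Ota controls (15.3%), 25 in the Fk and Ra controls (8.18%), 13 in the CsA controls (6.63%), 3 in the Aa controls (0.783%) and 1 in the Nnm and Kbr controls (0.29%). No member was called higher in any of these 6 comparisons by limma, where 14 to 29 members had an unadjusted p under 0.05. The median change of the members was -1.48, -1.41, -1.23, -1.04, -0.35 and -0.38 in that order, while the median of all genes stayed between -0.07 and 0.02. The times compared were 48 against 12 h for CsA, Fk and Ra, and CdCl and Di, 72 against 24 h for Ota, and 48 against 24 h for Aa and for Nnm and Kbr.

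MCM10, which helps the loaded ring start unwinding, had log2 levels of 8.16, 8.05 and 8.10 in the Ota controls at 24 h and 3.78, 4.16 and 4.02 at 72 h. The 2 sets of arrays did not overlap. The later levels here and in the CdCl and Di controls lie at or near the filter value of 4, close to background, so the sizes of these changes, and of the changes against these later controls, are not exact. MCM10 fell by 4.11 (SE 0.15) there and by 4.13 (SE 0.17) in the CdCl and Di controls. In the Aa and the Nnm and Kbr controls it fell by 1.19 (SE 0.20) and 1.37 (SE 0.31). RRM2, the regulated subunit of ribonucleotide reductase, was at 13.47, 13.52 and 13.51 in the CdCl and Di controls at 12 h and at 11.24, 11.60 and 11.29 at 48 h. ASF1B, a histone chaperone, and UHRF1, which helps copy DNA methylation, fell by 2.82 (SE 0.27) and 2.74 (SE 0.20) in the same cultures. CDC6 was not called in these cultures: its levels were 9.40, 9.38 and 9.30 at 12 h and 9.28, 9.42 and 9.28 at 48 h. PRIM1 and RFC5 were called in none of the 6 comparisons.

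With the replicate number as a block, which the CsA, Aa and Nnm and Kbr arrays bear out, 23, 18 and 9 members were called in place of 13, 3 and 1, all of them lower but 1 in the Aa controls (29.1%, 14.0% and 7.72% of all genes were called in either direction). The CsA count was 6 without control 12 h replicate 1, 5 without control 12 h replicate 2, 6 without control 48 h replicate 2 and 7 without control 48 h replicate 3, and the Fk and Ra count was 12 to 16 without control 12 h replicate 1 or 3 or control 48 h replicate 1 or 2. The Aa count of 3 was 8 without control 48 h replicate 3 and 0 or 1 without any other control array, and the Nnm and Kbr count of 1 was 0 without any control array but 48 h replicate 3. Counts with an array left out, here and below, come without the share of all genes called in that refit.

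**Figure D2:**
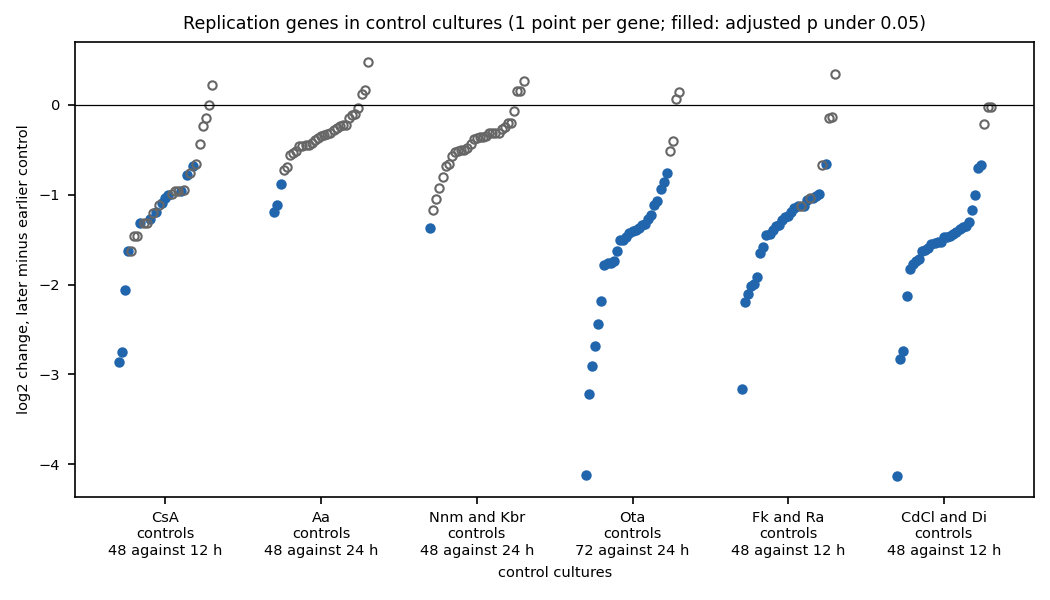
Change of each of the 31 genes between the later and the earlier vehicle control in the 6 sets of cultures; each point is a gene, filled where the adjusted p was under 0.05. Nearly all points lie below 0, and the lowest in each set is MCM10.

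**Figure D3:**
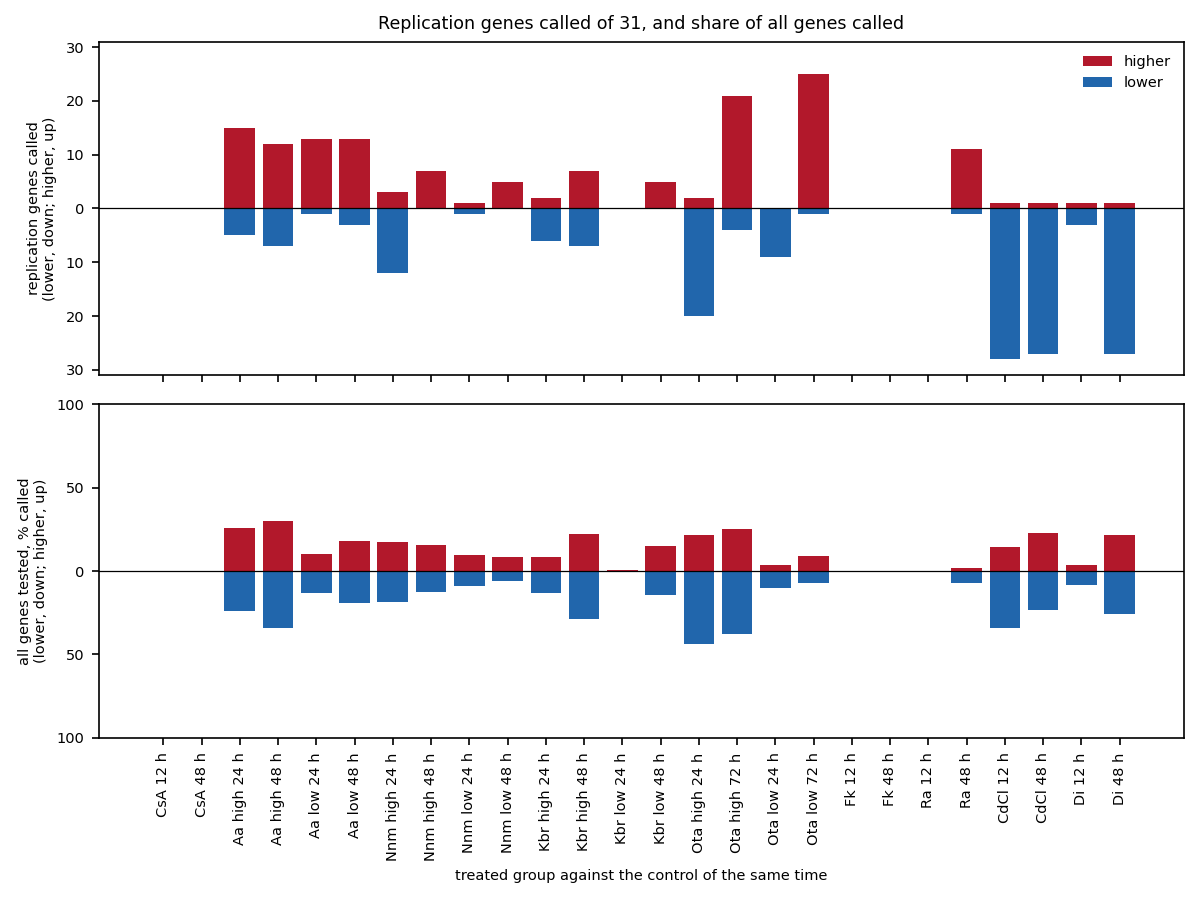
Number of the 31 genes called higher (up) or lower (down) in each treated group, above the percent of all genes tested that were called in each direction. The counts of lower genes peak at 28 for CdCl at 12 h, and those of higher genes at 25 for Ota low at 72 h.

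Ota gave opposite pictures at 24 and 72 h. At 24 h the high dose had 20 members lower and 2 higher (43.6% and 21.4% of all genes), and at 72 h it had 4 lower and 21 higher (37.9% and 25.3%). The low dose had 9 lower and 0 higher at 24 h (9.99% and 3.72%), where 16 members had an unadjusted p under 0.05 by limma, and 25 higher and 1 lower at 72 h (9.01% and 7.02%). The median change of the members went from -1.05 to 0.69 with the high dose and from -0.35 to 1.03 with the low dose. As the controls fell between these times, a higher value at 72 h is higher than a fallen control.

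At 72 h MCM10 was at 7.85, 8.32 and 8.01 with the high dose and at 7.26, 7.22 and 7.05 with the low dose, against 3.78, 4.16 and 4.02 in the controls. The treated arrays of both doses lay above all 72 h controls. The low dose arrays lay below the 24 h controls without overlap. The changes were 4.07 (SE 0.15, adjusted p 1.9e-11) and 3.19 (SE 0.15), sizes that rest on controls near background. ASF1B was higher by 2.45 (SE 0.23) and 2.42 (SE 0.23), CDC45 by 2.08 (SE 0.18) and 1.82 (SE 0.18), and UHRF1 by 1.68 (SE 0.14) and 1.94 (SE 0.14). The 6 MCM ring genes were all higher with the low dose at 72 h (0.71 to 1.03), and 4 of them with the high dose. The 3′ minus 5′ difference of ACTB, a sign of RNA quality, was 1.66 to 2.30 on the high dose arrays at 72 h against 1.16 to 1.51 in their controls, and its part in the high dose results was not tested.

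RFC4, a subunit of the clamp loader, went against this. Its 24 h levels were 11.39, 11.57 and 11.82 in the controls, 9.40, 9.34 and 9.77 with the low dose and 7.65, 8.26 and 7.86 with the high dose. At 72 h they were 10.65, 11.03 and 10.82, then 9.90, 9.87 and 10.06, and 6.54, 6.46 and 5.74. The groups did not overlap at either time, and the order was control, low dose, high dose. RFC4 fell by 3.67 (SE 0.21) and 4.59 (SE 0.21, adjusted p 1.7e-10) with the high dose, and by 2.09 and 0.89 with the low dose. PRIM1, the catalytic subunit of primase, was at 10.02, 10.28 and 9.92 in the 72 h controls and at 7.08, 7.30 and 7.35 with the high dose, but at 10.05, 10.29 and 10.04 with the low dose. It fell by 2.83 (SE 0.20) with the high dose, while the low dose overlapped the control. TK1, the salvage kinase of thymidine, moved in opposite directions with dose at 72 h. It stood at 8.86, 8.90 and 8.71 in the controls, 6.05, 7.26 and 7.03 with the high dose and 10.10, 9.81 and 10.16 with the low dose, and the 3 groups did not overlap. TK1 fell by 2.04 (SE 0.26) with the high dose and was higher by 1.20 (SE 0.26) with the low dose.

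At 24 h the high dose lowered CHAF1A, the large subunit of CAF-1, from 9.55, 9.46 and 9.36 to 6.17, 6.21 and 6.51, a change of -3.16 (SE 0.14, adjusted p 7.4e-11), and the groups did not overlap. RFC3 fell by 3.60 (SE 0.40). The changes of GINS4, MCM5 and RRM2 were -3.43 (SE 0.47), -2.21 (SE 0.15) and -1.87 (SE 0.18), where GINS4 was at 3.39, 4.34 and 3.05 with the high dose, near background, so that its size is not exact. MCM10 and MCM7 had changes of -0.02 and 0.06 and were not called. The high dose differed from the low dose in 20 members at 24 h, with 18 lower and 2 higher (39.4% and 19.6% of all genes), and in 14 at 72 h, with 12 lower and 2 higher (37.0% and 20.9%). At 72 h the share of members called lower was close to that of all genes, and the share called higher was below it. The dose count at 72 h therefore does not set the members apart. Tested between the times, the signed change with the high dose was above that at 24 h for 27 members at 72 h. It was below it for 2 (32.7% and 20.6% of all genes), and with the low dose it was above it for 26 (4.77%). A change above the earlier one can be a weaker fall, and 1 below it a stronger fall. The largest of these differences were RFC3 at 4.64 (SE 0.57) for the high dose and MCM10 at 3.67 (SE 0.21) for the low dose, which also rests on 72 h controls near background. The low dose count at 24 h was 4 without control replicate 1 or 3, 5 without control replicate 2 or low dose replicate 1, and 3 without low dose replicate 2.

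**Figure D4:**
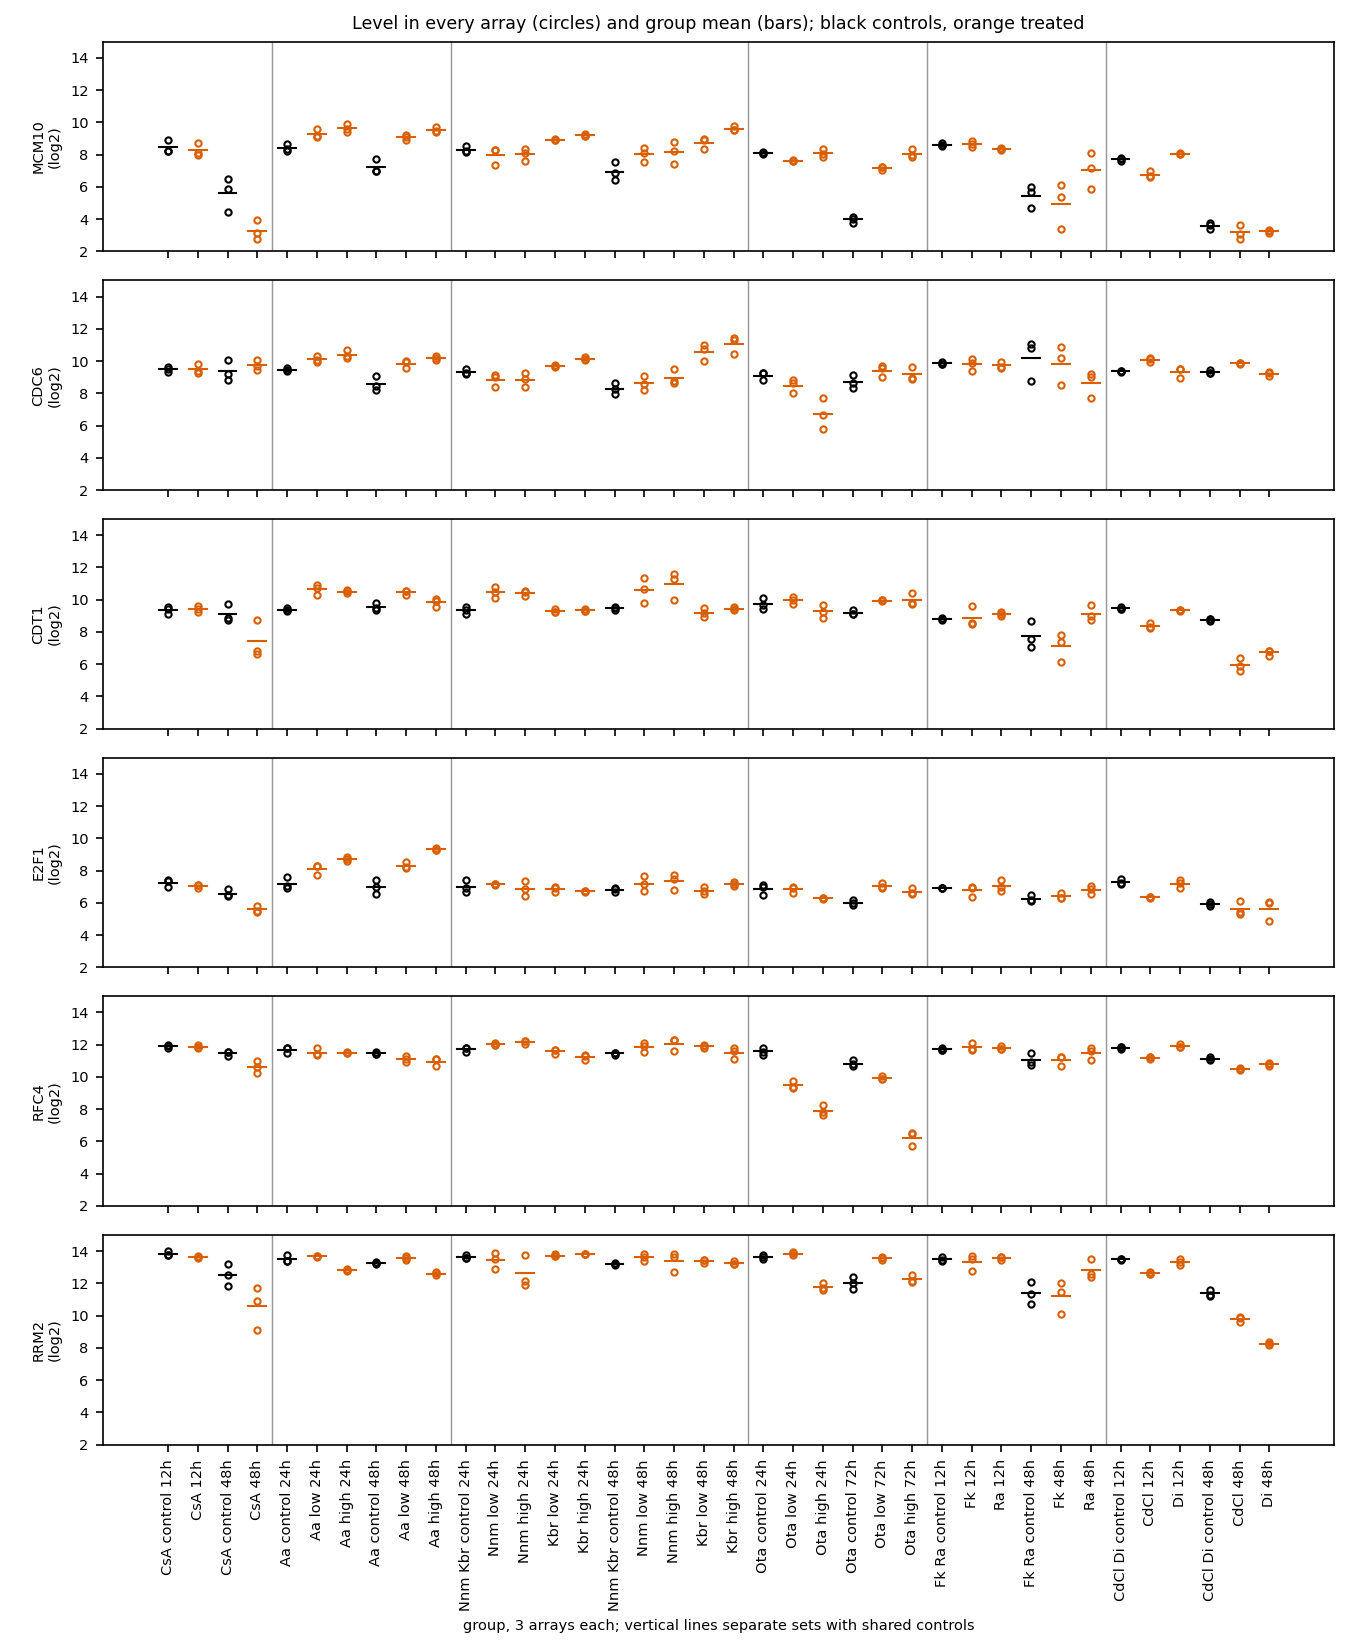
Log2 level of MCM10, CDC6, CDT1, E2F1, RFC4 and RRM2 on every array (circles) with the group mean (bars), black for controls and orange for treated groups. MCM10 drops in the later controls and lies above them under Ota at 72 h, RFC4 drops under Ota, and CDC6 is highest under Kbr at 48 h.

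CdCl lowered most replication genes at both times, and Di did so at 48 h. CdCl had 28 members lower and 1 higher at 12 h (34.3% and 14.5% of all genes) and 27 lower and 1 higher at 48 h (23.5% and 22.9%). Di had 3 lower and 1 higher at 12 h (8.23% and 3.61%) and 27 lower and 1 higher at 48 h (25.9% and 21.4%). The member medians were -0.89, -1.12, -0.12 and -1.14. The ACTB 3′ minus 5′ difference was 1.23 to 1.55 on the Di arrays at 12 h against 1.82 to 2.09 in their controls, and its part in the Di results at 12 h was not tested. At 12 h ASF1B was at 8.04, 8.26 and 8.08 with CdCl against 9.65, 10.04 and 9.86, with no overlap, and fell by 1.72 (SE 0.27). GINS1, a GINS subunit, changed by -1.42 (SE 0.12) and UHRF1 by -1.37 (SE 0.20). The one higher gene was CDC6 for CdCl at both times, GINS4 for Di at 12 h and RFC5 for Di at 48 h.

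CDT1, the licensing factor that is destroyed in S phase, was at 8.78, 8.81 and 8.71 in the 48 h controls, 6.39, 5.61 and 5.90 with CdCl and 6.84, 6.83 and 6.53 with Di. Neither treated group overlapped the controls, and CDT1 fell by 2.80 (SE 0.15, adjusted p 1.5e-09) with CdCl and by 2.03 (SE 0.15) with Di. RRM2 was at 11.24, 11.60 and 11.29 in these controls, 9.89, 9.61 and 9.85 with CdCl and 8.24, 8.19 and 8.34 with Di. Its changes were -1.59 (SE 0.11) and -3.12 (SE 0.11, adjusted p 1.6e-11). MCM7, a ring subunit, was at 9.48, 9.64 and 9.53 in the controls, 8.38, 8.53 and 8.41 with CdCl and 6.64, 6.32 and 6.75 with Di. It fell by 1.11 (SE 0.09) and 2.98 (SE 0.09), so the Di arrays lay below the CdCl arrays. CDC6, the partner of CDT1 in loading, was at 9.28, 9.42 and 9.28 in the 48 h controls, 9.91, 9.86 and 9.84 with CdCl and 9.06, 9.25 and 9.31 with Di. CDC6 was higher by 0.54 (SE 0.12) with CdCl at 48 h and by 0.73 (SE 0.12) at 12 h, and the Di arrays overlapped the controls.

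Set against each other, CdCl was lower than Di in 27 members and higher in 1 at 12 h (25.9% and 15.2% of all genes). At 48 h it was higher in 11 and lower in 5 (23.6% and 19.0%), led by MCM7 at 1.88 (SE 0.09) and RRM2 at 1.52 (SE 0.11), with CDT1 lower by -0.77 (SE 0.15). Both share their controls, and the labels give no dose. The change at 48 h was below that at 12 h for 25 members with Di (16.2% of all genes) and for 13 with CdCl (9.34%), and above it for 2 with CdCl (21.1%). The Di count of 4 members at 12 h was 0 without control replicate 2, 1 without control replicate 3 or Di replicate 1, and 2 without control replicate 1 or Di replicate 3.

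With Aa more members were called higher than lower at both doses and times, and at 48 h with the high dose E2F1 and MCM10 had the largest rises. The high dose had 15 members higher and 5 lower at 24 h (26.0% and 23.9% of all genes) and 12 higher and 7 lower at 48 h (29.8% and 34.5%). The low dose had 13 higher and 1 lower at 24 h (10.2% and 13.0%) and 13 higher and 3 lower at 48 h (17.7% and 19.3%). In each of these groups the share of members called lower was below that of all genes. The falls given below are therefore those of single genes. With the high dose at 48 h the share called higher was only somewhat above that of all genes. E2F1, a transcription factor of the G1 to S transition, was at 7.39, 6.55 and 6.95 in the 48 h controls, 8.52, 8.13 and 8.19 with the low dose and 9.39, 9.27 and 9.29 with the high dose. The 3 groups did not overlap. E2F1 was higher by 1.31 (SE 0.22) and 2.35 (SE 0.22, adjusted p 2.8e-07), and the high dose exceeded the low dose by 1.04 (SE 0.22). MCM10 was at 6.98, 7.00 and 7.70 in the 48 h controls and at 9.38, 9.48 and 9.69 with the high dose, higher by 2.29 (SE 0.20). Its other probe sets changed by 2.08 and 1.48. CDC6 was higher by 1.61 (SE 0.20) and ASF1B by 1.35 (SE 0.18) in that group.

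The genes that Aa lowered at 48 h with the high dose were PRIM1 (-1.12), MCM6 (-0.73), RRM2 (-0.65), POLA1 (-0.57), GINS2 (-0.55), RFC4 (-0.53) and GINS1 (-0.43). PRIM1 was at 10.09, 10.34 and 10.24 in the controls, 9.93, 10.16 and 10.09 with the low dose and 9.03, 9.09 and 9.19 with the high dose. Only the high dose arrays lay wholly below these controls. The high dose differed from the low dose in 6 members at 24 h (2 higher, 4 lower, against 16.6% and 9.79% of all genes) and in 12 at 48 h (5 higher, 7 lower, against 20.3% and 24.5%). These shares of the members were close to those of all genes or below them, so the dose counts do not set the members apart. The response to the high dose differed between the times in 6 members, 2 upwards and 4 downwards (6.63% and 12.2%), and in 15 with the replicate block (37.2% of all genes in either direction). Without the block the shares of the members were close to those of all genes. For the low dose it was 0 by limma, where 12 members had an unadjusted p under 0.05 (1.31% of all genes were called), and 7 with the block (8.44%). At 24 h E2F1 was at 7.59, 7.07 and 6.92 in the controls and 8.84, 8.57 and 8.74 with the high dose, with no overlap, and was higher by 1.52 (SE 0.22). GINS4 was the lowest gene of that group, at 6.33, 6.56 and 6.80 against 7.78, 7.85 and 7.18, a change of -1.04 (SE 0.36). CDT1 had the largest rise with the low dose at 24 h, from 9.48, 9.34 and 9.33 to 10.89, 10.30 and 10.71, a change of 1.25 (SE 0.16), while a second CDT1 probe set changed by 0.44 (adjusted p 0.39 by limma). The low dose count of 14 at 24 h was 6, 7 and 9 without control replicate 1, 2 and 3 and 4 without low dose replicate 3, and the high dose time count of 6 was 10 without control 48 h replicate 3.

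Kbr raised CDC6 and MCM10 at 48 h and lowered MCM ring genes with the high dose. The high dose had 2 members higher and 6 lower at 24 h (8.17% and 13.4% of all genes) and 7 higher and 7 lower at 48 h (22.2% and 28.9%). The low dose had 0 called at 24 h by limma, where 4 members had an unadjusted p under 0.05 (1.36% of all genes), and 5 higher and 0 lower at 48 h (15.2% and 14.3%), where 9 had an unadjusted p under 0.05. At 48 h the share of members called higher was close to that of all genes with both doses, and the share called lower was below it. The counts at 48 h therefore do not set the members apart, and the changes below are those of single genes. CDC6 was at 7.93, 8.26 and 8.63 in the 48 h controls, 11.01, 10.75 and 10.00 with the low dose and 11.45, 11.32 and 10.45 with the high dose. Both doses lay above the controls and overlapped each other. CDC6 was higher by 2.32 (SE 0.30) and 2.80 (SE 0.30, adjusted p 1.1e-07). RFC3 was higher by 1.21 (SE 0.14) and 1.65 (SE 0.14), MCM10 by 1.80 (SE 0.31) and 2.65 (SE 0.31), and GINS4 by 1.02 (SE 0.38) and 1.50 (SE 0.38). The other MCM10 probe sets changed less, by 0.81 and 1.09 with the low dose and by 1.35 and 1.90 with the high dose. MCM5, MCM6, MCM7 and MCM2 were lower with the high dose at 48 h, by -0.54, -0.76, -0.51 and -0.40, as was PRIM1, at 9.29, 9.24 and 8.74 against 10.27, 10.32 and 10.28 in the controls. The PRIM1 arrays did not overlap, and the change was -1.20 (SE 0.29). At 24 h MCM5 was at 10.41, 10.11 and 10.19 with the high dose against 11.33, 10.92 and 10.95, with no overlap, and changed by -0.83 (SE 0.20).

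The response to the high dose of Kbr rose between the times for 3 members (CDC6, MCM10 and RFC3), against 0.58% of all genes. RFC3 alone exceeded the low dose at 48 h (0.45, SE 0.14, with 1.71% of all genes called higher), and 0 members differed between doses at 24 h by limma, where 1 had an unadjusted p under 0.05 (0.0544% of all genes). For the low dose 0 members differed between the times by limma (0% of all genes), where 5 had an unadjusted p under 0.05, and 1 did without its 48 h replicate 3. With the replicate block 2 members were called for the low dose at 24 h (7.77% of all genes), 9 at 48 h (41.4%) and 5 between doses at 48 h (17.8%). The high dose count at 24 h was 3 to 5 without control replicate 1 or any Kbr replicate, the low dose count at 48 h was 3 without control replicate 1 or Kbr low replicate 2 or 3, the time count was 0 or 1 without control 24 h replicate 3, control 48 h replicate 1 or Kbr high 48 h replicate 1 or 2, and the dose difference of RFC3 was lost without Kbr high replicate 1 or 2 or any Kbr low replicate.

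With Nnm, CDT1 was higher at both doses and times by the probe set used, and its second probe set did not pass the test. By the first, CDT1 was at 9.52, 9.34 and 9.13 in the 24 h controls, 10.81, 10.09 and 10.45 with the low dose and 10.54, 10.21 and 10.46 with the high dose. At 48 h it was at 9.56, 9.39 and 9.50, then 11.35, 9.80 and 10.67, and 11.60, 10.00 and 11.27. All treated arrays lay above the controls of their time, and replicate 2 was the lowest treated array each time. CDT1 was higher by 1.12, 1.07, 1.13 and 1.48 (SE 0.31 each; adjusted p 0.017, 0.012, 0.020 and 0.0018), in the order low and high dose at 24 h, then at 48 h. The second probe set changed by 0.46, 0.16, 0.94 and 1.01 in the same order (adjusted p 0.52, 0.82, 0.18 and 0.11 by limma). The high dose had 3 members higher and 12 lower at 24 h (17.6% and 18.4% of all genes) and 7 higher and 0 lower at 48 h (15.4% and 12.3%), where 12 had an unadjusted p under 0.05 by limma. The low dose had 1 higher and 1 lower at 24 h (9.39% and 9.13%) and 5 higher and 0 lower at 48 h (8.39% and 5.73%), where 10 had an unadjusted p under 0.05.

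At 24 h UHRF1 had the largest fall with the high dose, at 9.30, 10.81 and 9.70 against 11.29, 11.02 and 11.48 in the controls, and the change was -1.33 (SE 0.26). The arrays did not overlap, and replicate 2 was the highest of the treated ones. RRM2 was at 11.92, 13.79 and 12.17 with the high dose against 13.61, 13.58 and 13.73 in the controls, and replicate 2 alone lay above them. Without that replicate 21 members were called, and without control replicate 1 or 3 or high dose replicate 1 or 3 the count was 9, 8, 4 and 6. The share of all genes called in these refits is not given, so the counts show only how the calls depend on single arrays. At 48 h ASF1B, MCM10, CHAF1A, GINS3, RFC3 and RFC4 were higher beside CDT1, by 1.00, 1.21, 0.80, 0.66, 0.60 and 0.60. No member differed between the doses at 24 or 48 h by limma (0% of all genes each), where 9 and 0 members had an unadjusted p under 0.05, and 14 did at 24 h without high dose replicate 2. Between the times, 0 differed for either dose (0% of all genes), where 21 and 8 had an unadjusted p under 0.05. For the high dose the count was 3 with the block (0.725% of all genes), 19 without the 24 h replicate 2 and 6 without the 48 h replicate 2. With the block 11 members were called for the high dose at 48 h (41.2% of all genes) and 5 for the low dose at 24 h (31.9%). With only the arrays compared in the fit, 0 were called for either dose at 48 h. The low dose counts were 0 to 4 at 24 h without control replicate 1 or 3 or any Nnm low replicate, and 1 to 3 at 48 h without control replicate 1 or 2 or Nnm low replicate 1 or 3.

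CsA left the replication genes uncalled at both times, although their values at 48 h lay low. At 12 h 0 members were called by limma, 0 had an unadjusted p under 0.05 (0% of all genes were called) and the median change was -0.10. At 48 h 0 were called (0.00925% of all genes) while 28 had an unadjusted p under 0.05, with a median change of -1.21. With the replicate block 14 were called (1.91% of all genes), and 18 were called without CsA 48 h replicate 1, where the share of all genes is not given. ASF1B was at 8.60, 7.72 and 8.28 in the controls and 6.83, 4.43 and 5.71 with CsA, a change of -2.55 (SE 0.49, adjusted p 0.15). The groups did not overlap, and replicate 2 was the lowest in both. MCM10 was at 6.47, 4.46 and 5.86 and at 3.15, 2.74 and 3.97, a change of -2.31 (SE 0.49, adjusted p 0.16, and 0.044 with the block). The CsA arrays of MCM10 lay below 4, near background, so the size of its change is not exact. The change at 48 h did not pass against that at 12 h for any member by limma (0% of all genes), where 19 had an unadjusted p under 0.05.

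Ra raised 11 members at 48 h and Fk none at either time. Ra at 48 h had 11 higher and 1 lower (1.87% and 7.46% of all genes). The Ra values in this paragraph are listed in the order replicate 1, 3 and 2, and those of the controls in the order 1, 2 and 3. ASF1B was at 6.94, 7.48 and 8.03 in the controls and 9.21, 10.16 and 9.06 with Ra, with no overlap, and was higher by 2.00 (SE 0.34, adjusted p 0.0092). RRM2 was at 10.73, 11.37 and 12.10 and at 12.43, 13.54 and 12.59, higher by 1.45 (SE 0.44), and all Ra arrays lay above the controls. CDC6 was at 11.05, 10.81 and 8.73 in the controls and 9.17, 9.01 and 7.73 with Ra, a change of -1.56 (SE 0.59, adjusted p 0.098) with overlapping arrays. The lower gene was RFC5. The Ra count of 12 was 1 without control replicate 1, 0 without control replicate 2, 20 without control replicate 3, 8 without Ra replicate 2, whose upper quartile stood apart, and 1 without Ra replicate 3. It was 0 with only the arrays compared in the fit and 22 after quantile normalization. The share of all genes called in these refits is not given.

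Fk at 12 h, Fk at 48 h and Ra at 12 h had 0 members called by limma (0.00918%, 0% and 0.0367% of all genes), with 2, 0 and 1 at an unadjusted p under 0.05. Fk was below Ra in 19 members at 48 h (1.04% of all genes), led by MCM10 at -2.12 (SE 0.58) and CDT1 at -2.02 (SE 0.43). That count was 0 without Fk replicate 1, 4 without Fk replicate 2 or Ra replicate 3, and 10 without Ra replicate 2. The times did not differ for Fk or Ra in any member by limma (0% and 0.0459% of all genes), where 0 and 13 members had an unadjusted p under 0.05. The Ra count was 1 without its 48 h replicate 1.

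Of the licensing factors, CDC6 was higher in 8 of 26 treated groups and lower in 1 (Ota high at 24 h, by -2.37), and CDT1, by the probe set used, was higher in 9 and lower in 3. The second CDT1 probe set did not pass as higher in any of those 9 groups. With Ota high at 72 h it was lower (-0.92, adjusted p 0.031 by limma). It passed as lower in the 3 groups with a fall, so the CDT1 rises rest on the probe set used. Of the helicase activators, MCM10, by the probe set used, was higher in 11 groups and lower in 2, and GINS2 was lower in 10 and higher in 2. With CdCl and Di at 48 h the MCM10 levels lay below 4 in controls and treated arrays, so a fall could hardly be called there. Another MCM10 probe set, above 4 on all 114 arrays, was lower in both (-0.68 each, adjusted p 0.0018 and 0.0017 by limma). The remaining MCM10 probe set did not pass in either (-0.06 and -0.04, adjusted p 0.94 and 0.96 by limma). The ring genes MCM2, MCM3, MCM4, MCM5, MCM6 and MCM7 were lower in 7, 5, 4, 8, 9 and 7 groups and higher in 5, 3, 2, 2, 3 and 2. PRIM1 was lower in 9 groups and higher in 0, where its highest change was 0.51, and RFC4 was lower in 8 and higher in 2. TK1 was lower in 8 and higher in 1. ASF1B and CHAF1A were each higher in 9 groups and lower in 5. Groups with shared controls are not separate evidence. The number of groups in which other genes were called is not given, so these tallies do not set the members apart from other genes.

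Over the 38 group means the members' levels correlated with a median r of 0.78 across their 465 pairs (lowest -0.55, highest 0.97), and over the 12 control groups with a median r of 0.91. Across the groups the median r of CDC6 with the other members was 0.07, while that of UHRF1 was 0.90. These values are a description, since groups of a set share its cultures' time and the scaling of the arrays, and they carry no p.

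RFC5 was measured by 3 probe sets that moved apart. The one used was higher by 0.68 with Ota high at 24 h, while the other two changed by -3.75 and -5.48, the latter with 2 of the 3 treated arrays below 4, near background. In the 5 groups where the RFC5 probe set used was called, each of the others had its sign in 1. RFC5 is therefore given no direction here, and the RFC5 calls in the counts above (Nnm high and Ota high at 24 h, Ra at 48 h, CdCl at 48 h and Di at 48 h) stand for that probe set. CDT1 had a second probe set that changed by -0.92 with Ota high at 72 h, against 0.79 for the one used, and MCM6 one that changed by 1.80 with Ota low at 24 h, against -0.54.

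**Figure D5:**
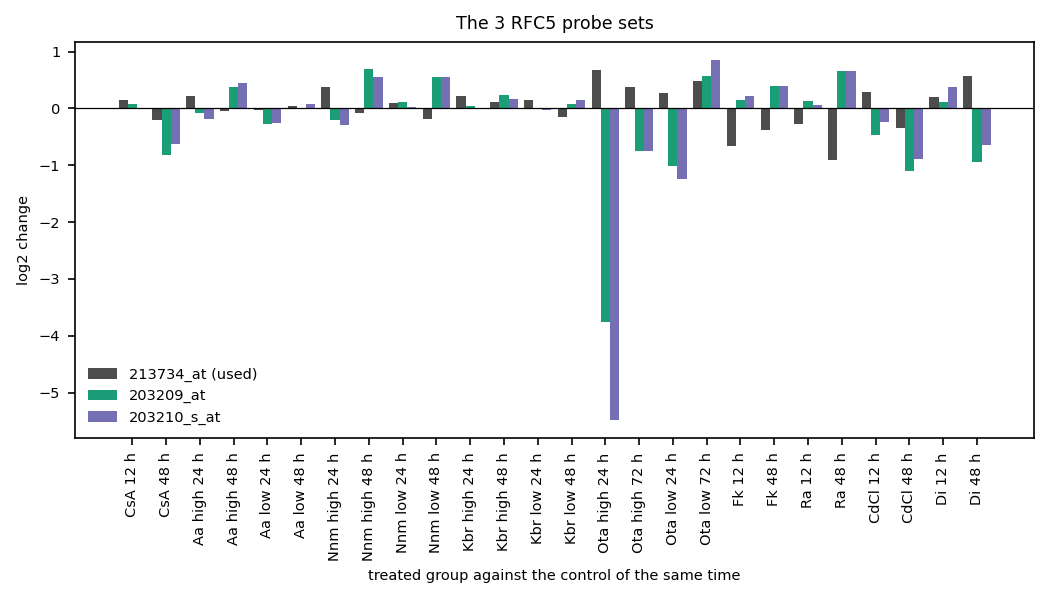
Log2 change of the 3 RFC5 probe sets in each treated group against its control; the grey bars are the probe set used. With Ota high at 24 h it stands at 0.68 and the others at -3.75 and -5.48.

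The other genes of the cell cycle on the lists moved partly with the members. Of 40 other replication genes tested, 26 were lower and 1 higher with CdCl at 12 h (34.3% and 14.5% of all genes), 26 and 1 with Di at 48 h (25.9% and 21.4%), and 23 were higher and 1 lower with Ota low at 72 h (9.01% and 7.02%). Of 33 regulators of G1 and S phase, 19 were lower and 7 higher with CdCl at 12 h, and 16 were higher and 0 lower with Ota low at 72 h. Of 28 mitosis genes, 26 were lower with CdCl at 12 h, 27 with Di at 48 h and 28 in the later Ota controls (15.3% of all genes). With the high dose of Aa at 24 h 18 mitosis genes were lower and 0 higher, where 15 of the 31 members were higher (23.9% of all genes were lower and 26.0% higher), and with the low dose at 48 h 23 mitosis genes were higher and 0 lower (17.7% and 19.3%). In these bulk cultures fewer cells in S phase and less RNA per such cell cannot be told apart.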

How the data were processed

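Total RNA of HK-2 cells was hybridised to Affymetrix arrays. The authors deposited log2 values per probe set, in 1 table of 114 arrays. The submitters' processing notes name GCRMA, a background correction, quantile normalization and summary of probes, with no version; which arrays were normalized together is not given in the sources used here. No array pair was identical. The depth of an array is not a count, and 3 arrays a group limit the precision.

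Of 54675 probe sets, 41091 had 1 symbol in the platform table, 1801 several and 11721 none, beside 62 array controls. A gene was its probe set with the highest mean, and genes above 4 on at least 3 arrays of a set were tested. limma 3.58.1 in R 4.3.3 (lmFit and eBayes) fitted each of the 6 sets of arrays that share controls, with Benjamini-Hochberg adjustment over all genes (10806 to 11138) and a threshold of 0.05. Any member could be named, first the 3 called members with the largest rise and fall (5 where 10 or more were called), with array values for the largest and for those the results turn on. The members and lists were chosen with earlier results of these data known. The fit was tested on simulated data.

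Replicate numbers come from the labels. The correlation of same-numbered arrays was over 0.1 for every pair in the CsA (median 0.80), Aa (0.43) and Nnm and Kbr (0.40) sets, and not in the Ota, Fk and Ra, and CdCl and Di sets. Alternatives were no filter, the mean of all probe sets, quantile normalization, all arrays in 1 fit, only the arrays compared, the replicate block, and each replicate left out. The 4 full E2F words were searched first, and the 2 short words were added after promoter windows had been seen.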

Additional observations from a re-analysis of the deposited data

Results flagged for a closer look

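The response of replication genes differed between the times, by the test of the difference itself, in 6 treatments. It differed for 29 members with the high dose of Ota, 27 upwards and 2 downwards (32.7% and 20.6% of all genes), and for 26 with the low dose, all upwards (4.77%), between 72 and 24 h. It differed for 25 members with Di, all downwards (16.2% of all genes), and for 15 with CdCl, 2 upwards and 13 downwards (21.1% and 9.34%), between 48 and 12 h. It differed for 6 members with the high dose of Aa, 2 upwards and 4 downwards (6.63% and 12.2% of all genes), and for 3 with the high dose of Kbr, all upwards (0.58%), between 48 and 24 h. For Aa the shares of the members were close to those of all genes, so this count does not set the members apart. In all 6 the controls of the later time are themselves lower than those of the earlier time for at least 1 member.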

How the results depend on the processing

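Over the settings that leave out no replicate, 3520 changes of single members kept their sign and side of the threshold, 404 called changes no longer passed it and 20 changed sign. Of the counts of members called, 280 stayed within 1.5 times and 56 did not. Leaving out a replicate reversed no called change, and 610 no longer passed while 3764 did not change their call. The cause of these shifts was not tested. The counts below come without the share of all genes called in the same setting, which moves too. For CsA 48 h, 1 gene of all was called in the main fit and 206 with the replicate block. The counts therefore show how the calls depend on the setting, and nothing particular to the members. With the mean of all probe sets the number of members called was 1 for CsA 48 h, 1 for Nnm low 24 h, 3 for Nnm low 48 h, 1 for Kbr low 24 h and 2 for Di 12 h. The same setting gave 5 for Aa controls 48 against 24 h. With all arrays in 1 fit the number of members called was 27 for CsA 48 h, 12 for Aa high 24 h, 4 for Aa low 24 h, 25 for Ra 48 h and 0 for Di 12 h. The same setting gave 26 for CsA controls 48 against 12 h, 0 for Aa controls 48 against 24 h, 0 for Nnm and Kbr controls 48 against 24 h, 7 for Aa high against low 48 h and 8 for CsA response 48 against 12 h. That setting gave 2 for Aa high response 48 against 24 h, 1 for Kbr high response 48 against 24 h, 15 for Ra response 48 against 12 h, 2 for CdCl response 48 against 12 h and 6 for CdCl against Di 48 h. With the replicate block the number of members called was 14 for CsA 48 h, 11 for Nnm high 48 h, 5 for Nnm low 24 h, 2 for Kbr low 24 h and 9 for Kbr low 48 h. The same setting gave 2 for Di 12 h, 23 for CsA controls 48 against 12 h, 18 for Aa controls 48 against 24 h, 9 for Nnm and Kbr controls 48 against 24 h and 5 for Kbr high against low 48 h. That setting gave 15 for Aa high response 48 against 24 h, 7 for Aa low response 48 against 24 h and 3 for Nnm high response 48 against 24 h. With only the arrays of the comparison the number of members called was 9 for Aa low 24 h, 1 for Nnm high 24 h, 0 for Nnm high 48 h, 1 for Nnm low 24 h and 0 for Nnm low 48 h. The same setting gave 13 for Kbr high 24 h, 2 for Kbr low 24 h, 1 for Ra 12 h, 0 for Ra 48 h and 0 for Di 12 h. That setting gave 0 for Aa controls 48 against 24 h, 0 for Nnm and Kbr controls 48 against 24 h, 3 for Aa high against low 24 h and 0 for Fk against Ra 48 h. Without the filter on low values the number of members called was 1 for Nnm low 24 h, 5 for Kbr high 24 h, 6 for Ra 48 h, 0 for Nnm and Kbr controls 48 against 24 h and 0 for Kbr high against low 48 h. The same setting gave 9 for Fk against Ra 48 h. After quantile normalization the number of members called was 22 for Ra 48 h and 2 for Ra response 48 against 12 h. With the mean of all probe sets the sign changed, to -0.0421 for RFC5, Nnm high 24 h, -2.85 for RFC5, Ota high 24 h, -0.0697 for CDT1, Ota high 72 h and 0.63 for MCM6, Ota low 24 h. That setting also gave 0.14 for RFC5, Ra 48 h and -0.35 for RFC5, Di 48 h. Other probe sets of the gene gave -0.18 for CHAF1A, Aa high 24 h, -0.21 for RFC5, Nnm high 24 h, -0.29 for RFC5, Nnm high 24 h and -3.75 for RFC5, Ota high 24 h. They gave -5.48 for RFC5, Ota high 24 h, -0.92 for CDT1, Ota high 72 h, 0.042 for MCM10, Ota low 24 h and 1.8 for MCM6, Ota low 24 h. They also gave 0.66 for both of RFC5, Ra 48 h, 0.14 for MCM4, CdCl 12 h and 0.17 for FEN1, Di 12 h. For Di they gave -0.95 for RFC5, Di 48 h and -0.65 for RFC5, Di 48 h. Leaving out 1 replicate at a time, the count ran from 0 to 18 for CsA 48 h, 4 to 13 for Aa low 24 h, 4 to 21 for Nnm high 24 h and 0 to 4 for Nnm low 24 h. It ran from 1 to 7 for Nnm low 48 h, 3 to 6 for Kbr high 24 h, 3 to 5 for Kbr low 48 h and 3 to 6 for Ota low 24 h. It ran from 0 to 20 for Ra 48 h, 0 to 4 for Di 12 h, 5 to 13 for CsA controls 48 against 12 h and 0 to 8 for Aa controls 48 against 24 h. It ran from 0 to 1 for Nnm and Kbr controls 48 against 24 h, 12 to 28 for Fk and Ra controls 48 against 12 h, 0 to 1 for Kbr high against low 48 h and 0 to 14 for Nnm high against low 24 h. It ran from 4 to 10 for Aa high response 48 against 24 h, 0 to 1 for Aa low response 48 against 24 h, 0 to 19 for Nnm high response 48 against 24 h and 0 to 3 for Kbr high response 48 against 24 h. It ran from 0 to 1 for Kbr low response 48 against 24 h, 0 to 1 for Ra response 48 against 12 h and 0 to 23 for Fk against Ra 48 h. The replicate numbers did not pair the arrays of the Ota, Fk and Ra, and CdCl and Di sets. The 3 arrays a group limit the precision.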
